A study of Homo sapiens with 4 samples.

Results

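The matrix metalloproteinases (MMP), their tissue inhibitors (TIMP) and the related ADAM and ADAMTS proteins were examined in G401 cells, a widely used line established from a kidney rhabdoid tumour. The genes were taken from the deposited tables by symbol: MMP, ADAM or ADAMTS followed by a number (for MMP also by a letter), and TIMP followed by 1 to 4. This gave 69 of the 57820 gene models, made up of 24 MMP, 4 TIMP, 22 ADAM and 19 ADAMTS genes. The series held 4 RNA sequencing libraries, 2 with the genotype label BRD9 KO and 2 carrying the label LacZ control, all from G401 cells grown in DMEM with 10% FBS. BRD9 is a bromodomain subunit of a SWI/SNF chromatin remodelling complex, and the comparison addresses how its loss alters transcription in cells without SMARCB1. Loss of SMARCB1, another SWI/SNF subunit, is the defining lesion of rhabdoid tumours and is shared by both groups. The study could not recover BRD9-deficient clones of G401, and the labels do not say that these libraries came from a clone. The LacZ control is not described further in the labels, and the day of harvest is not given in the sources used here.

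These 4 families control how cells cut proteins outside and at the surface of the cell. MMPs degrade matrix proteins and are blocked by TIMPs. ADAMs are membrane proteins, many of which release the outer part of growth factors, receptors and adhesion proteins, while others have lost the protease site and act in adhesion. ADAMTS proteins are secreted and cut matrix and plasma proteins such as versican, procollagens and von Willebrand factor. All the active enzymes hold a zinc ion between 3 histidines, and most are made as inactive precursors.

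The coding sequence of the zinc site was looked up for these genes. A coding model on GRCh37 from GENCODE v44 could be read for 64 of the 69 genes, with 2 further models left out because a stop codon fell inside them. It was searched for codons for histidine and glutamate, 2 codons of any kind, histidine, 5 codons of any kind and histidine. The site was present in 52 of the 64, among them all 12 ADAMs classed as proteases, all 19 ADAMTS genes and all 21 MMPs that could be read. It was found in none of the 8 ADAMs classed as lacking a protease site and in none of the 4 TIMPs. The ADAM classes were drawn up by whether a protease site is known, so their match is no independent result. The search was planned with glycine at the eighth position and widened after the models were seen. With glycine required, 14 of the 19 ADAMTS genes held the site, and ADAMTS1 did not. Of the 23 genes with enough counts to be tested (described below), 17 held the site and 6 did not. Of the 15 among them that changed in BRD9 KO, 10 held the site and 5 did not: TIMP1, TIMP2, ADAM11, ADAM22 and ADAM23. Among the 10 is ADAM9, whose site is not reported here. The 33 bases of the site are shown for the others of the 10, 5′ to 3′ along the coding strand, with the codons of the 3 histidines in capitals.
MMP15: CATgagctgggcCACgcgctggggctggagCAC
MMP24: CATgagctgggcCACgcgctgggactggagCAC
ADAM10: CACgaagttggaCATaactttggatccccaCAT
ADAM15: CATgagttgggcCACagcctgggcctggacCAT
ADAM19: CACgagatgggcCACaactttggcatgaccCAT
ADAMTS1: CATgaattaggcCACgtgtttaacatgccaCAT
ADAMTS7: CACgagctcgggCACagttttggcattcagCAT
ADAMTS10: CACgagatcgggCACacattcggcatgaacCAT
ADAMTS13: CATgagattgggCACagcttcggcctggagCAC

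On GRCh37 these sites lie in coding exons. The sites of MMP15 (chr16:58074467-58074499, plus strand) and MMP24 (chr20:33851620-33851652, plus strand) each fall within an exon, as do those of ADAM15 (chr1:155029471-155029503, plus strand) and ADAM19 (chr5:156932742-156932774, minus strand). The others are split by an intron: ADAM10 (chr15:58920080-58925424, minus strand), ADAMTS1 (chr21:28213462-28214186, minus strand), ADAMTS7 (chr15:79080701-79082047, minus strand), ADAMTS10 (chr19:8661088-8661207, minus strand) and ADAMTS13 (chr9:136291449-136293769, plus strand). Counting codons from the first histidine, 47 of the 52 sites have a glycine codon at the eighth position. ADAMTS1 was the exception among the changed genes, with an asparagine codon there. The same codon stood in 3 other ADAMTS genes of its class, ADAMTS4, ADAMTS9 and ADAMTS15, and a codon for another residue stood in ADAMTS8.

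Expected counts summed to between 15053247 and 19559290 per library. BRD9, the targeted gene, was at 29.4 and 26.8 CPM in the BRD9 KO libraries (counts scaled to library size with TMM factors) and at 48.2 and 53.8 CPM in the controls. The BRD9 KO libraries were thus below both controls, at 55.1% of the control mean. SMARCB1 was at 0 in every library. The markers looked at for blood and endothelium were at 0.205 CPM or less, and of those for epithelium EPCAM, CDH1 and KRT19 stayed at 0.398 CPM or less. PECAM1, also planned as an endothelial marker, was not found by its symbol and was not looked at. The epithelial marker CLDN4 was at 6.77 and 5.33 CPM in BRD9 KO and at 10.6 and 9.30 CPM in LacZ control, and was lower in BRD9 KO (log2 fold change −0.71, adjusted p 5.44e-04 with edgeR); its part in the results below was not tested.

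Of the 69 genes, 23 had enough counts to be tested, 19 had counts below the filter and 27 were at 0 in all 4 libraries. Levels between genes were compared in TPM, which the authors divided by transcript length. ADAM9 was the most abundant, followed by TIMP2 and TIMP1 and then by ADAMTS1 and MMP24. ADAMTS1 stood above MMP24 in LacZ control, at 94.0 and 95.6 TPM against 62.7 and 65.1 TPM, and below it in BRD9 KO, at 68.7 and 68.5 TPM against 74.4 and 70.6 TPM. These 5 genes made up between 71.6% and 73.7% of the summed TPM of all 69. ADAM9 was at 245 and 246 TPM in BRD9 KO and at 220 and 215 TPM in LacZ control, or 24.1% to 27.3% of that sum. At the other end ADAM32 and ADAM19 lay near 1 TPM. TIMP2 and TIMP1 were close in BRD9 KO, at 142 and 143 TPM against 141 and 135 TPM, and further apart in LacZ control, at 151 and 150 TPM against 120 and 117 TPM. Lower in the order neighbours overlapped: in LacZ control ADAM22 was at 10.4 and 7.40 TPM and ADAMTS10 at 10.5 and 7.79 TPM. The summed TPM of the 69 genes ran from 899 to 913 in BRD9 KO and from 892 to 906 in LacZ control, so the groups overlapped.

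**Figure D1:**
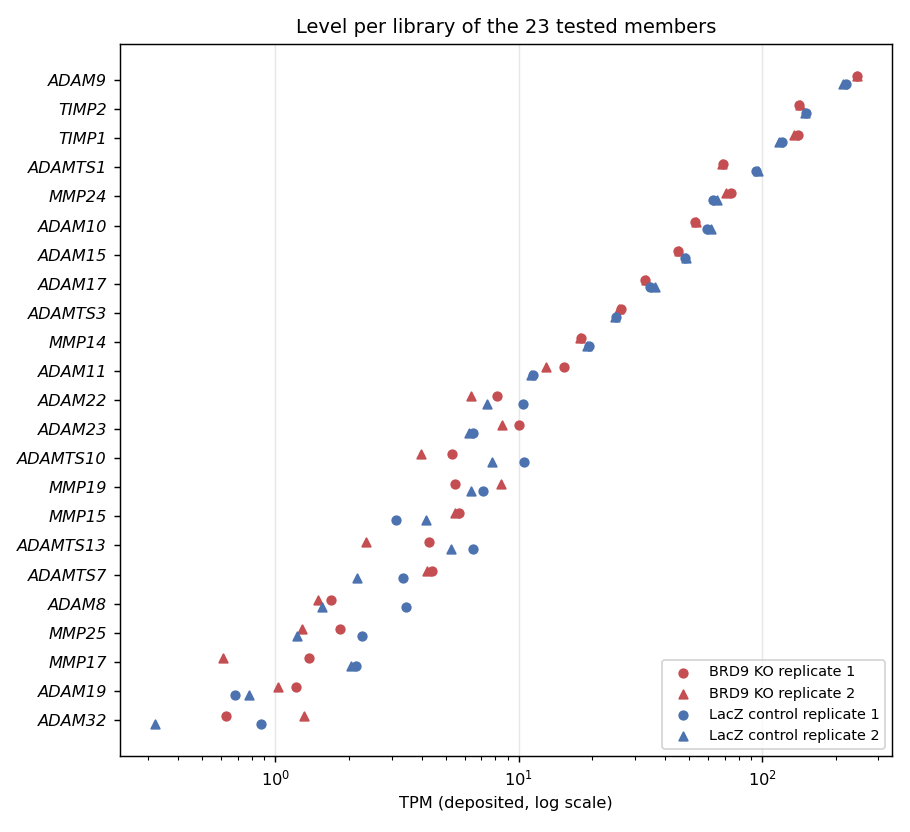
Deposited TPM (x axis, log scale) of the 23 tested genes (y axis, ordered by mean) in each of the 4 libraries, with red for BRD9 KO, blue for LacZ control, circles for replicate 1 and triangles for replicate 2. Levels span from ADAM32 and ADAM19 near 1 TPM to ADAM9 at 215 to 246 TPM, and the libraries of a gene sit closer together at high levels than at low ones.

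The 23 tested genes moved in both directions in BRD9 KO. By the quasi-likelihood test of edgeR, with p-values adjusted by Benjamini-Hochberg across the 15288 tested genes, 15 of the 23 tested genes changed at an adjusted p under 0.05, or 65.2%. Among all tested genes 5901 changed, or 38.6%. Of the 23, 8 were higher in BRD9 KO (34.8%, against 20.5% of all tested genes) and 7 were lower (30.4%, against 18.1%). Where the mean reached 10 CPM or more, 49.0% of all and 11 of the 14 tested members changed. Over the 23 tested genes, called or not, the median absolute log2 fold change was 0.21, against 0.18 over all tested genes. Of the 23, 5 (21.7%) both passed and moved at least 1.5-fold, where 6.86% of all tested genes did. The 5 were ADAMTS10 and ADAMTS13, which fell, and ADAM19, ADAMTS7 and MMP15, which rose. Under limma on log2(TPM + 1), 4 of the 23 passed, namely ADAM9, TIMP1, ADAMTS1 and ADAMTS10, which passed in every alternative tried. The signed median of the 23 was −0.08, beside −0.01 for all tested genes, and it came to 0.03 without LacZ control replicate 1. In bulk RNA a lower level can come from fewer cells with the transcript or from less transcript per cell, and these cannot be told apart.

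**Figure D2:**
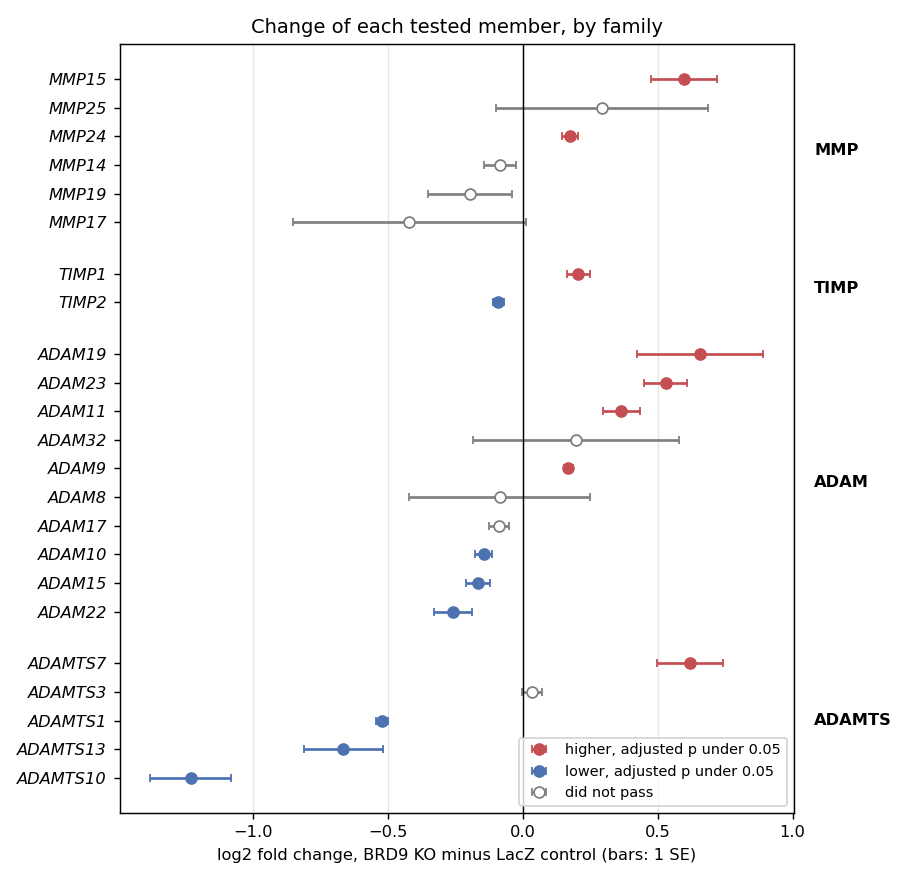
Log2 fold change in BRD9 KO relative to LacZ control (x axis) of the 23 tested genes (y axis), grouped by family, with 1 SE as bars. Filled red and blue points passed at an adjusted p under 0.05, and open points did not. ADAMTS10 lies furthest from 0 on the left, at −1.23, and ADAM19 furthest on the right, at 0.66, with a wide error bar.

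Among the MMPs only members anchored in the membrane and MMP19 had enough counts for a test, and 2 of these 6 changed, both upward. This share is near the 38.6% of all tested genes that changed. MMP15 (MT2-MMP), a transmembrane collagenase on chromosome 16 at 58059658-58080805, was at 14.3 and 13.7 CPM in BRD9 KO and at 7.89 and 10.6 CPM in LacZ control. Both BRD9 KO libraries were above both controls, which differed more between themselves. MMP15 rose 1.51-fold (log2 fold change 0.60, SE 0.12, adjusted p 5.63e-04). MMP24 (MT5-MMP), a membrane-type enzyme known from neural tissue that can shed N-cadherin, was at 195 and 185 CPM in BRD9 KO and at 165 and 171 CPM in LacZ control. It was the most abundant MMP and its groups did not overlap, with a rise of 1.13-fold (log2 fold change 0.18, SE 0.03, adjusted p 1.02e-04). Exons of MMP24 share 806 bases with MMP24OS on the opposite strand, which was at 34.6 and 35.9 CPM in BRD9 KO and 37.3 and 38.0 CPM in LacZ control; the library kit does not mark strand, and the part of these reads in the MMP24 value was not tested.

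MMP14 (MT1-MMP), the main cell-surface collagenase and the activator of pro-MMP2, was at 33.7 and 35.8 CPM in BRD9 KO and at 37.7 and 35.8 CPM in LacZ control. The nearest libraries of the groups almost met, and the difference did not pass (log2 fold change −0.08, SE 0.06, adjusted p 0.293). MMP17 and MMP25, which are held to the membrane by a lipid anchor, and the secreted MMP19 did not pass either. These lay between 0.551 and 8.56 CPM, with overlapping groups in each case. MMP25 and MMP19 overlap other genes on the opposite strand (MMP25-AS1 and TMEM198B), and the deposited posterior standard deviation of the count reached 11.4% for MMP25 and 4.44% for MMP19 but 0.95% at most for the other tested members.

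The secreted MMPs best known from tumour stroma were absent or nearly so. MMP1, MMP8 and MMP13, the classical collagenases, had no counts, nor had the gelatinase MMP2, the stromelysin MMP3, or MMP7, MMP11, MMP12, MMP20, MMP26 and MMP27. A count of 0 allows up to 0.199 CPM in the shallowest library, for counting error only. MMP9, the other gelatinase, had 11 and 6 counts in BRD9 KO and 7 and 3 in LacZ control, a ratio of 1.5 per sequenced read with an exact 95% counting interval of 0.649 to 3.67. MMP2, the usual target of MMP14 together with TIMP2, was thus not detectable at this depth, while both of those genes were expressed.

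The expressed TIMPs moved in opposite directions. TIMP1, a secreted inhibitor of most MMPs that acts poorly on the membrane-type enzymes, was at 68.2 and 64.9 CPM in BRD9 KO and at 57.5 and 58.1 CPM in LacZ control. Its groups did not overlap, and it rose 1.15-fold (log2 fold change 0.21, SE 0.04, adjusted p 7.21e-04). TIMP2, which inhibits the membrane-type MMPs and also helps MMP14 to activate pro-MMP2, was at 285 and 288 CPM in BRD9 KO and at 305 and 305 CPM in LacZ control. It stood at 93.9% of the control mean (log2 fold change −0.09, SE 0.02, adjusted p 1.13e-03), while the libraries of each group lay within a few CPM of each other. TIMP3, the inhibitor of ADAM17 and of several ADAMTS enzymes, and TIMP4 were at 0 in every library.

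Of the 6 tested ADAM proteases, 2 rose, 2 fell and 2 did not pass, beside 20.5% higher and 18.1% lower among all tested genes. ADAM9, a shedding enzyme of broad expression, was at 548 and 552 CPM in BRD9 KO and at 494 and 484 CPM in LacZ control. The libraries of each group lay close together and far from the other group, and ADAM9 rose 1.12-fold (log2 fold change 0.17, SE 0.02, adjusted p 5.54e-08). ADAM9 shares 71 exonic bases with TM2D2 on the opposite strand, which was at 55.3 and 56.6 CPM in BRD9 KO and 49.4 and 46.6 CPM in LacZ control and also rose, and its part in the ADAM9 count was not tested. ADAM19 (meltrin beta), which can shed neuregulin, was at 4.15 and 3.25 CPM in BRD9 KO and at 1.99 and 2.70 CPM in LacZ control. The groups did not overlap, and it rose 1.58-fold (log2 fold change 0.66, SE 0.23, adjusted p 0.0323). This call ended without BRD9 KO replicate 1 (adjusted p 0.256), without LacZ control replicate 1 (0.234) and with DESeq2 (0.236). ADAM19 shares 62 exonic bases with CYFIP2 on the opposite strand. CYFIP2 was at 98.4 and 93.9 CPM in BRD9 KO and 30.8 and 29.6 CPM in LacZ control, and its part in the ADAM19 count was not tested.

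ADAM10, the main sheddase of Notch and of the amyloid precursor protein at the alpha site, was at 143 and 144 CPM in BRD9 KO and at 153 and 163 CPM in LacZ control. The groups did not overlap, and ADAM10 fell to 90.6% of the control mean (log2 fold change −0.14, SE 0.03, adjusted p 1.05e-03). Without LacZ control replicate 2 its adjusted p was 0.0639. ADAM15, a membrane protease with an integrin-binding disintegrin domain, was at 58.0 and 58.8 CPM in BRD9 KO and at 62.8 and 67.9 CPM in LacZ control. It fell to 89.3% of the control mean (log2 fold change −0.17, SE 0.04, adjusted p 6.19e-03), but did not pass without LacZ control replicate 2 (adjusted p 0.166) or with DESeq2 (0.0991).

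ADAM17 (TACE), which releases tumour necrosis factor and several ligands of the epidermal growth factor receptor, was at 84.8 and 85.8 CPM in BRD9 KO and at 89.3 and 91.8 CPM in LacZ control. Its groups did not overlap, and its difference lay near the threshold (log2 fold change −0.09, SE 0.04, adjusted p 0.0642). It passed with the filter of at least 1 CPM in every library (adjusted p 0.0344) and with library totals in place of TMM factors (0.0473). ADAM8, an enzyme best known from white blood cells, was between 1.49 and 2.79 CPM with overlapping groups (adjusted p 0.872).

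ADAM11, ADAM22 and ADAM23 lack the zinc site and bind the secreted LGI proteins of the nervous system, and they did not move together. ADAM23 on chromosome 2 at 207308256-207485851 was at 22.8 and 22.8 CPM in BRD9 KO and at 16.1 and 15.5 CPM in LacZ control. The groups lay far apart relative to their spread, and it rose 1.44-fold (log2 fold change 0.53, SE 0.08, adjusted p 2.43e-05). ADAM11 was at 35.4 and 35.2 CPM in BRD9 KO and at 29.2 and 25.8 CPM in LacZ control. It rose 1.29-fold (log2 fold change 0.37, SE 0.07, adjusted p 2.16e-04), with the controls further from each other than the BRD9 KO libraries. ADAM22 was at 26.2 and 26.1 CPM in BRD9 KO and at 33.2 and 29.6 CPM in LacZ control. Its fall to 83.4% of the control mean (log2 fold change −0.26, SE 0.07, adjusted p 6.02e-03) did not pass without LacZ control replicate 1 (adjusted p 0.118) or with DESeq2 (0.0709). ADAM32, also without the zinc site, was between 0.780 and 1.33 CPM and did not pass (adjusted p 0.724). The other 6 genes of this class, ADAM2, ADAM5, ADAM6, ADAM7, ADAM18 and ADAM29, were at 0.

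Of the 5 tested ADAMTS genes 3 were lower and 1 was higher, beside 18.1% and 20.5% of all tested genes. ADAMTS10, which binds fibrillin microfibrils, lies on chromosome 19 at 8645124-8675620. It was at 4.31 and 3.74 CPM in BRD9 KO and at 9.55 and 9.42 CPM in LacZ control, so that both BRD9 KO libraries stood below both controls by more than the spread within either group. It fell to 42.4% of the control mean (log2 fold change −1.23, SE 0.15, adjusted p 1.74e-06), the largest change of the 23 genes. ADAMTS1, which cuts versican and aggrecan, lies on chromosome 21 at 28208074-28217728. It was at 202 and 202 CPM in BRD9 KO and at 290 and 291 CPM in LacZ control, with replicates that nearly coincided. It fell to 69.7% of the control mean (log2 fold change −0.52, SE 0.02, adjusted p 3.18e-13), the smallest adjusted p of the 23. ADAMTS1 accounted for 10.4% and 10.7% of the summed TPM of the 69 genes in LacZ control and 7.53% and 7.62% in BRD9 KO.

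ADAMTS13, the enzyme that trims von Willebrand factor and is made mainly by the liver, was at 5.95 and 5.02 CPM in BRD9 KO and at 9.09 and 8.40 CPM in LacZ control. The groups did not overlap, and it fell to 62.7% of the control mean (log2 fold change −0.66, SE 0.15, adjusted p 1.10e-03). ADAMTS7, which can degrade cartilage oligomeric matrix protein, went the other way, at 11.7 and 12.2 CPM in BRD9 KO and 8.62 and 6.96 CPM in LacZ control. It rose 1.54-fold (log2 fold change 0.62, SE 0.12, adjusted p 4.51e-04). ADAMTS3, which removes the N-propeptide of procollagen II and activates VEGF-C, was at 88.6 and 87.2 CPM in BRD9 KO and at 86.2 and 85.6 CPM in LacZ control. The groups were separated by a small step that did not pass (log2 fold change 0.04, SE 0.04, adjusted p 0.484). The summed TPM of all 19 ADAMTS genes was 110 and 106 in BRD9 KO and 140 and 137 in LacZ control. Most of this difference came from ADAMTS1 alone, at 68.7 and 68.5 TPM in BRD9 KO and 94.0 and 95.6 TPM in LacZ control.

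**Figure D3:**
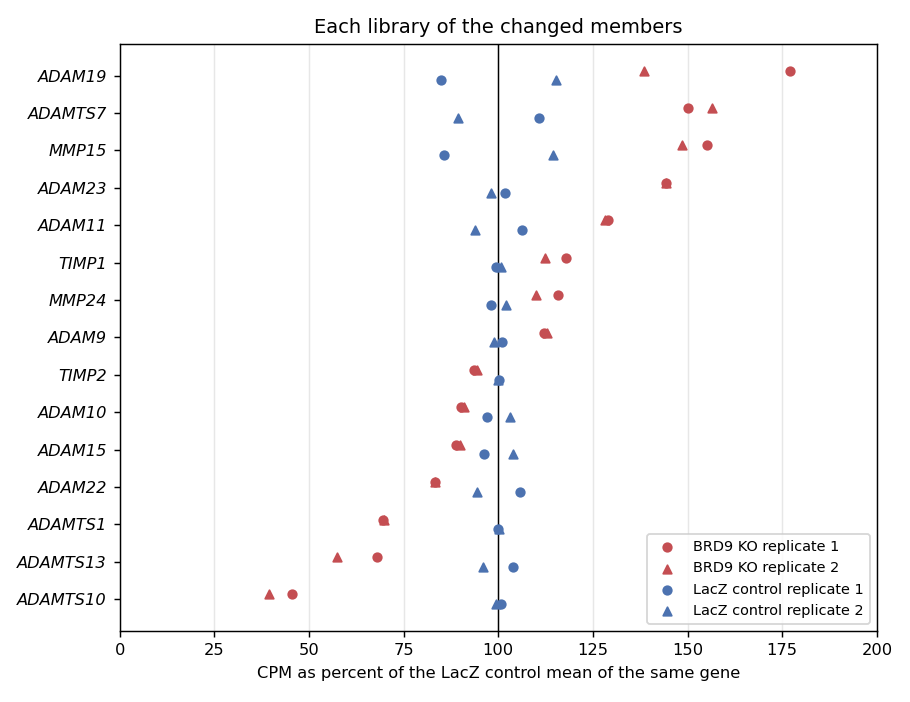
CPM of each library as percent of the LacZ control mean of the same gene (x axis) for the 15 changed genes (y axis), with red for BRD9 KO, blue for LacZ control, circles for replicate 1 and triangles for replicate 2. No BRD9 KO library falls between the controls of any of the 15, but these were picked for passing the test, so this follows largely from that choice. The groups did not overlap either in MMP14, ADAM17 and ADAMTS3, which did not pass. How often this holds over all tested genes was not counted. ADAMTS10 sits at 42.4% of the control mean and ADAM19 at 158%, where the libraries of each group spread most.

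Most ADAMTS and many ADAM genes stayed below the filter. The 19 genes with counts below it reached 11 counts at most, or 0.660 CPM. ADAMTS4, another aggrecanase, had 1 and 0 counts in BRD9 KO and 5 and 6 in LacZ control, a ratio of 0.0802 per sequenced read with an exact 95% counting interval of 0.00186 to 0.552. It passed when no filter was applied (adjusted p 0.0436). ADAMTS16 had no counts in BRD9 KO and 3 and 2 in LacZ control. ADAMTS14, MMP9, ADAMTS6, MMP23B, ADAM21, MMP16 and the remaining 10 genes named here (ADAMTS9, ADAM20, MMP23A, MMP10, ADAMTS17, ADAMTS8, MMP21, ADAM12, ADAM28 and ADAMTS20) had 11 counts or fewer in each library, as had MMP28 with 1 and 3 counts in BRD9 KO and none in LacZ control. ADAM30, ADAM33, ADAMTS2, ADAMTS5, ADAMTS12, ADAMTS15, ADAMTS18 and ADAMTS19 were at 0.

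Genes that act with these proteases were looked at in 10 lists of 65 genes, of which 37 were tested. There 16 were higher and 8 lower in BRD9 KO, against 20.5% and 18.1% of all tested genes, with a median log2 fold change of 0.08. In the plasminogen system, which activates several MMP precursors, members moved in both directions. PLAU, the urokinase plasminogen activator, was at 788 and 801 CPM in BRD9 KO and at 496 and 492 CPM in LacZ control. Its groups were far apart, with a log2 fold change of 0.69 (SE 0.01, adjusted p 4.15e-18). Its receptor PLAUR rose by 0.38 on the log2 scale. PLAT, the tissue activator, fell from 29 and 32 counts in LacZ control to 16 and 16 in BRD9 KO (log2 fold change −1.10, adjusted p 0.0143); it was named after its values were seen.

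Of the partners that take ADAM10 and ADAM17 to the cell surface, 3 of 5 tested tetraspanins and 2 of 3 tested ADAM17 partners rose. None fell, beside 20.5% higher and 18.1% lower among all tested genes, and both lists are short. Of the TspanC8 tetraspanins, which escort ADAM10, TSPAN15 (log2 fold change 0.55), TSPAN10 (0.28) and TSPAN17 (0.22) rose, and TSPAN14 and TSPAN33 did not pass. TSPAN5 was below the filter, with 1 and 0 counts in BRD9 KO and 2 and 2 in LacZ control. The TSPAN15 call was lost in 5 of 12 alternatives, with an adjusted p of at most 0.105. RHBDF2, the iRhom that carries ADAM17 from the endoplasmic reticulum, was at 27.9 and 27.6 CPM in BRD9 KO and at 19.9 and 19.3 CPM in LacZ control, a log2 fold change of 0.50 (adjusted p 1.38e-05). FRMD8, which stabilises iRhom and ADAM17, rose by 0.35, while RHBDF1 was between 48.3 and 53.5 CPM and did not pass. ADAM10 fell and ADAM17 did not pass in the same libraries.

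Among proteins that ADAMs shed, 5 of the 7 tested rose and none fell, beside 20.5% higher and 18.1% lower among all tested genes. IL6R, the interleukin-6 receptor, was at 88.7 and 92.9 CPM in BRD9 KO and at 51.1 and 49.0 CPM in LacZ control (log2 fold change 0.86, adjusted p 3.67e-12). The ligand HBEGF rose by 0.43 and the amyloid precursor gene APP by 0.12, and the hyaluronan receptor CD44 by 0.31, the last with its call lost in 7 of 12 alternatives. TNFRSF1A, named after its values were seen, rose by 0.10. The ligands AREG, EREG, TGFA, BTC and EPGN were at 0. So were CDH2, the gene of N-cadherin, and ALCAM.

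Of the matrix and plasma substrates tested, 3 of 7 fell and 1 rose, beside 18.1% lower and 20.5% higher among all tested genes. COL1A2 was at 199 and 194 CPM in BRD9 KO and at 529 and 527 CPM in LacZ control, with no overlap and a log2 fold change of −1.43. COL1A1 fell by 1.02 and COL3A1 by 0.57 on the log2 scale. The proteoglycan BCAN, named after its values were seen, rose from 62 and 47 counts to 286 and 242 (log2 fold change 2.10). VCAN, the main substrate of ADAMTS1 among those tested, was at 430 and 417 CPM in BRD9 KO and at 418 and 395 CPM in LacZ control, with overlapping groups and an adjusted p of 0.10.

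Among the other lists PCSK5, a proprotein convertase that activates precursors, fell by 0.48 on the log2 scale, while FURIN and PCSK7 did not pass. RECK, a membrane-bound MMP inhibitor, fell by 0.21, a call lost in 7 of 12 alternatives (adjusted p up to 0.248), and BSG, an inducer of MMPs, did not pass. Of the ADAMTS-like proteins, which have no protease domain, ADAMTSL4 fell by 0.17. In the astacin family, which holds the procollagen C-proteinases, TLL2 was at 5.75 and 6.0 CPM in BRD9 KO and at 2.19 and 2.16 CPM in LacZ control, a log2 fold change of 1.43. BMP1 rose by 0.28, with its call lost in 5 of 12 alternatives, and TLL1 fell by 0.21.

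**Figure D4:**
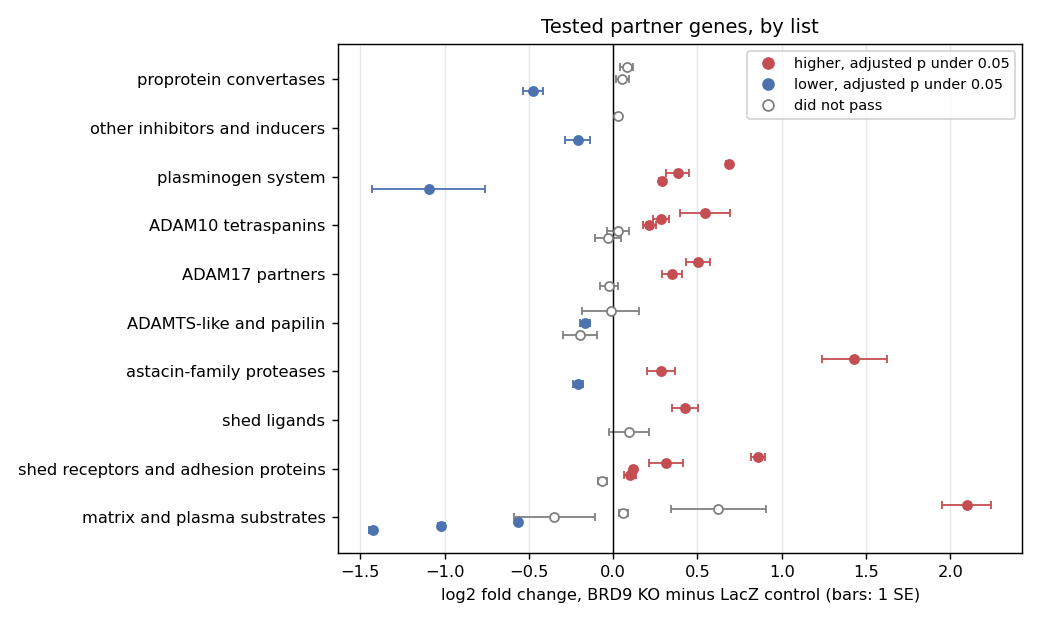
Log2 fold change in BRD9 KO relative to LacZ control (x axis) of the 37 tested partner genes, each a point with 1 SE, grouped by list (y axis); red and blue points passed at an adjusted p under 0.05, open points did not. The 3 collagen genes lie to the left in the list of substrates, where BCAN lies furthest to the right at 2.10, and all called tetraspanins, ADAM17 partners and shed proteins lie to the right.

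A RefSeq promoter of 300 bases, from 250 before to 50 after the RefSeq start, was matched by symbol for 39 of the 69 genes. That start can lie inside the GENCODE gene, as for ADAM21, ADAM29, MMP8, MMP11 and the changed gene ADAMTS13. The ADAMTS13 window was chr9:136287237-136287536, in a gene at 136279478-136324524. The members below the filter or at 0 had fewer CG dinucleotides there, with a median of 15 and a range of 0 to 47 over 24 promoters, than the tested ones, with a median of 32 and a range of 7 to 44 over 15. The median over all 27305 promoters of this length was 14. Promoters of genes that rose (median 33 over 6) and fell (median 32 over 5) had like numbers. The AP-1 motif, TGAGTCA or its reverse complement TGACTCA, was found in 1 of the 39, that of MMP7, and in 4.92% of all promoters. The CRE motif TGACGTCA was found in 1 (ADAMTS6) against 1.98%, and the ETS motif CCGGAAG on either strand in 1 (ADAM17) against 10.7%. None of the 11 promoters matched for changed genes held any of these exact letters in this window. No promoter was matched for ADAM9, TIMP2, ADAMTS1 and ADAM11, which also changed, so these were not searched. MMP1, MMP3, MMP9 and MMP13 were not matched either. Examples are given with CG in capitals and written 5′ to 3′ along the gene. They are the promoters of ADAMTS10 and ADAMTS7, the ADAMTS genes with the largest fall and the rise, and of MMP7, at 0 in every library.
ADAMTS10: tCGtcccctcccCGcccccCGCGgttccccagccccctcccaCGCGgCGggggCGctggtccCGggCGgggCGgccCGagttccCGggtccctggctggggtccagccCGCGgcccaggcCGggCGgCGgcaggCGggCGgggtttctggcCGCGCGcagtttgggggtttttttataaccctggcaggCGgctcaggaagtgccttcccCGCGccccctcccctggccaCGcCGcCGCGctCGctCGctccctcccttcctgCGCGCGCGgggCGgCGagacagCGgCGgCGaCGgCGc
ADAMTS7: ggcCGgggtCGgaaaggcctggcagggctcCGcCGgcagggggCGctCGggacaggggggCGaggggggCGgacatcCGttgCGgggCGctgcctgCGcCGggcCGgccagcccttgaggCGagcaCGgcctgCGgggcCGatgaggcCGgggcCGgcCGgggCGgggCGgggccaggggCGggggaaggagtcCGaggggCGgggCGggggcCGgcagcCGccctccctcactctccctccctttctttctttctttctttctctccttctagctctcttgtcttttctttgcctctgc
MMP7: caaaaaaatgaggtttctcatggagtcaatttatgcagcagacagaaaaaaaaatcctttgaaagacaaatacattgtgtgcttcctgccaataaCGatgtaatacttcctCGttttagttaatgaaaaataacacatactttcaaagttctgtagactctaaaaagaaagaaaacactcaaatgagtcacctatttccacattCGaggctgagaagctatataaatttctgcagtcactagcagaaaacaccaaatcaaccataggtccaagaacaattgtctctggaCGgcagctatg

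Each of these stretches was found at 1 place on its chromosome in GRCh37; other chromosomes were not searched. The first, at chr19:8675551-8675850 on the minus strand, holds 43 CG, the second, at chr15:79103757-79104056 on the minus strand, 29, and the third, at chr11:102401429-102401728 on the minus strand, 4.

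**Figure D5:**
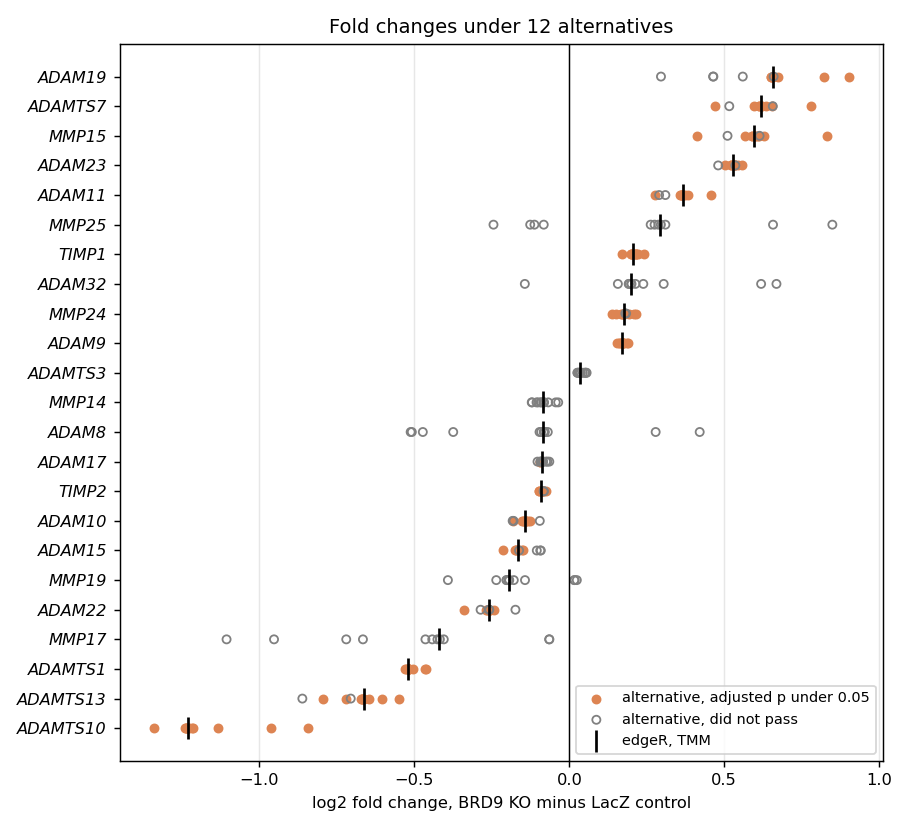
Log2 fold change (x axis) of the 23 tested genes (y axis) in the main test (black tick) and under 12 alternatives in filter, scaling, tool, unit, pairing or libraries, with orange for those at an adjusted p under 0.05 and open grey for the rest. ADAMTS10 stays between −1.34 and −0.85, ADAMTS1 between −0.53 and −0.46, and points on both sides of 0 are seen for ADAM8, ADAM32, MMP19 and MMP25, none of which passed.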

How the data were processed

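RNA sequencing was analysed from 2 BRD9 KO and 2 LacZ control libraries of G401 cells, grouped by their labelled genotype. Reads were aligned by the authors with STAR (build hg19) and gene abundances estimated with RSEM. DESeq2 is also named in the submitters' processing notes, which give no versions. The authors deposited an expected count (estimated count) for each gene, in which reads matching several genes are shared out by a model and libraries are not scaled. The deposited TPM is relative to transcript length and to the library. The library kit, by its catalogue number in the methods, does not mark strand. The labels name a Direct-zol extraction and the methods Trizol with column cleanup.

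Expected counts were rounded to whole numbers. Genes were tested with edgeR 4.0.16 (R 4.3.3) by its quasi-likelihood method, using TMM factors, filterByExpr, robust dispersions, no covariate, two-sided, and Benjamini-Hochberg adjustment over 15288 genes. CPM values are TMM-scaled and log2 fold changes are given as BRD9 KO relative to LacZ control. Alternatives used DESeq2 1.42.0, limma 3.58.1 on log2 TPM with a pseudocount of 1 or 0.1, other filters and scalings, a replicate block and each library left out. Intervals at 95% and the limit of 3 counts that a count of 0 allows cover counting error only. Totals of 15053247 to 19559290 counts limit the precision of low genes.

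Replicates of a group differed by a chi-square of 1.62 (LacZ control) and 1.59 (BRD9 KO) per degree of freedom over genes with at least 20 counts, so that all 4 were kept as separate libraries. They are biological replicates per the methods, but no label ties them to separate cultures. The p-values therefore reflect the spread among these 4 libraries alone, and that spread may be technical.

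The members, gene lists and tests were chosen with earlier results of these data known. Every member that passed the filter was named. Of each partner list, up to 3 changed genes with the smallest p were named, or the most abundant tested gene where none changed, and any other gene named beside a count was picked once its values were known; 1 gene that this rule took is not reported here. Gene coordinates and exon overlaps come from GENCODE v44 on GRCh37, found by identifier for 66 of the 69 genes, and promoters from RefSeq on GRCh38.p14, placed on GRCh37 by exact match on the same chromosome. The zinc site was planned as a search of RefSeq proteins with glycine at the eighth position. Coding sequences were searched in their place, any residue was allowed at that position after the data were seen, and the CRE and ETS motifs were added then.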

Additional observations from a re-analysis of the deposited data

How the results depend on the processing

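The count of 15 changed genes (8 higher, 7 lower) stayed between 12 and 16 under the other filters, scalings, the replicate block and DESeq2, and between 13 and 15 with a library left out (higher 7 to 8, lower 5 to 7). Limma on log2(TPM + 1) and on log2(TPM + 0.1) each gave 4, of which 2 higher and 2 lower, and called 2444 and 2417 of all tested genes in place of 5901; DESeq2 called 3339. The cause was not tested. Every gene called in these fits was among the 15 in the same direction, apart from ADAM17 (stricter filter, library totals) and ADAMTS4 (no filter). The median log2 fold change of the members ran from −0.0953 to 0.0339 with a library left out, the highest without LacZ control replicate 1. The replicate block, with 15 calls, changed no call among the members. In the labels, same-numbered libraries share only a number. Their deviations from the group means correlated at −0.05 over 15288 genes. With 2 libraries per group both pairs give this same value, and it cannot show whether a pair shared a batch. The partner count of 24 stayed between 17 and 25.

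Signs turned only in genes that did not pass: MMP19 (0.0173 and 0.0159 in the limma fits, −0.39 to 0.0242 with a library left out, highest without LacZ control replicate 1), MMP25 (−0.0825 and −0.11 in the limma fits, −0.24 to 0.85 with a library left out, below 0 without BRD9 KO replicate 1, and also when LacZ control replicate 2 was dropped), ADAM8 (−0.51 to 0.42 with a library left out, above 0 without replicate 1 of either group) and ADAM32 (−0.14 to 0.62 with a library left out, below 0 without LacZ control replicate 2).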
